A study of Mus musculus with 6 samples.

Results

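The histone genes of the 4 mouse histone gene clusters were examined in RNA-seq of WT and AS podocytes. Members were the protein-coding genes of GENCODE M21 whose symbol begins with Hist1h, Hist2h, Hist3h or Hist4h, which gave 67 of the 57132 genes in the count table. They encode 6 linker histones H1 and, among the core histones, 18 H2A, 18 H2B, 12 H3 and 13 H4. Of these genes, 54 belong to the Hist1 cluster on chromosome 13, 10 to the Hist2 cluster on chromosome 3, 2 to Hist3 on chromosome 11 and 1 to Hist4 on chromosome 6. In addition, 3 pseudogenes carry such a symbol and were not counted as members.

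Core histones form the octamer around which DNA is wrapped, and H1 binds the linker DNA between nucleosomes. Most genes of the clusters are replication-dependent: they are transcribed under the coactivator NPAT when DNA is copied in S phase, and their mRNAs end in a conserved stem-loop, bound by SLBP, in place of a poly(A) tail. Some of these genes can also give polyadenylated mRNA, above all in differentiated cells. Many, but not all, of the replacement histones encoded elsewhere are made throughout the cell cycle from ordinary polyadenylated mRNA. Podocytes in the kidney are terminally differentiated epithelial cells that rarely divide.

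Libraries were made from mRNA with the NuGEN Universal Plus mRNA-Seq kit, which selects poly(A) RNA, so that the levels below are those of histone transcripts recovered in such a library and not of total histone mRNA. The WT podocytes (IMWT, Col4a3+/+) and the AS podocytes (IMAS, Col4a3-/-, a model of Alport syndrome) are labelled as from adult 8-week-old male mice and untreated, with 3 samples of each, numbered as sets 1 to 3. Both lines carry the temperature-sensitive SV40 large T antigen of the H-2Kb-tsA58 transgene, an immortalizing oncoprotein that is induced by interferon gamma and active at 33 °C. The labels give growth at 33 °C, 20 U/mL interferon gamma and 14 days of differentiation at 37 °C, while the study's methods give a shorter differentiation, without interferon gamma. Since only 1 line represents each genotype, effects of the genotype and of the line cannot be told apart. Whether the sets are separate cultures is not stated, and p-values then measure the spread between these samples alone.

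The total count was between 45417221 and 54290968 per sample. Values are given as CPM, that is counts over the TMM-scaled library size, and a fold change is AS over WT from edgeR's quasi-likelihood test with Benjamini-Hochberg adjustment over the 16263 genes that passed the filter. Col4a3, the deleted gene, was at 938, 1052 and 1272 CPM in the WT samples against 62.4, 61.2 and 82.9 CPM in the AS samples. Of 8 podocyte markers 6 could be tested, of which 5 were lower and 1 was higher in AS podocytes. Of 5 endothelial markers Tie1 was at 0 in every sample, while Kdr was at a mean of 0.587 CPM in WT against 0.146 CPM in AS podocytes. Of 5 immune markers Adgre1 and Cd3e were at 0, while Csf1r was at 10.3 CPM in WT against 3.82 CPM in AS podocytes. WT sample 1 stood apart for the histone genes: it was the lowest WT sample for 30 of the 35 members tested and the highest for 0, while WT sample 2 was the highest for 23. The total count of WT sample 1, 52070194, was the largest of the WT samples. WT sample 1 also stood apart over all genes with at least 10 counts in a pair of samples. The chi-square of the counts per degree of freedom was 43.0 between WT samples 1 and 2 and 45.2 between 1 and 3. Between WT samples 2 and 3 it was 9.06.

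The stem-loop, the 16-base element at the end of replication-dependent histone mRNAs, was searched for as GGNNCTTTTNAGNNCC, on the transcript strand, after the stop codon of each annotated GENCODE M21 transcript (GRCm38). It was found in 44 of the 67 members and in 17 other protein-coding genes, or 0.0779% of them. It had 6 forms, and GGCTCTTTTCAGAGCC was the form in 26 members. A member with each form is shown, written 5′ to 3′ as DNA, with the stem-loop in capitals and 5 bases on each side, since this element marks the mRNAs that end without a poly(A) tail.
Hist1h1c: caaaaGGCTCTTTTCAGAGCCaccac
Hist1h4h: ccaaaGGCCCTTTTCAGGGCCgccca
Hist1h4i: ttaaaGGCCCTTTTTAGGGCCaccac
Hist1h3e: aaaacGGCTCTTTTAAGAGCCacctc
Hist2h2ac: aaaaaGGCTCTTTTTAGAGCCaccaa
Hist1h4j: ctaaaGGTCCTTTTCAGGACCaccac
The stem-loop of Hist1h1c began 24 bases after the stop codon, and that of Hist1h4i began 30 bases after it. Among the 23 members without a match, 13 had no annotated base after the stop codon, so that the annotation could not show a stem-loop there, and 17 had fewer than 60. The other 6 had 60 or more: Hist1h2bc, Hist2h2be, Hist1h4a, Hist1h3g, Hist1h2bq and Hist1h2br.

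Annotated transcripts of many members run on past the stem-loop. At least 100 annotated bases followed it in 22 members, and fewer than 100 followed it in the other 22. A poly(A) signal, AATAAA or ATTAAA on the transcript strand after the stop codon, was present in 22 of the 67 members, against 87.2% of 21901 protein-coding genes. The last such signal of 4 members with high levels in these libraries and of Hist2h2be, an H2B variant known from olfactory neurons, is shown with the signal in capitals.
Hist1h1c: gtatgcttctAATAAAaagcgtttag
Hist1h2bc: atgtatatatAATAAAtgtcatgtaa
Hist1h4h: acattttcttATTAAAagagcgaaca
Hist1h4i: ttctgtttacATTAAAagtattctat
Hist2h2be: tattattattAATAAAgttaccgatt
The signal lay 20 bases before the annotated end in Hist1h1c, 26 in Hist1h4h, 15 in Hist1h4i and 16 in Hist2h2be, but 441 in Hist1h2bc, whose annotated transcript has 2 exons and no stem-loop.

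Promoters of 61 members were found in RefSeq (GRCm38.p6), each as 250 bases before to 50 bases after the annotated start. The motif CCAAT, read on both strands, was in 52 of them (85.2%), against 37.9% of 27025 promoters of the same length. It was in 100% of the H1, H2A, H2B and H3 promoters but in 3 of 12 H4 promoters. TATAAA was in 57.4% of the member promoters and in 14.2% of all promoters. The octamer ATTTGCAT was present in 7 of 17 H2A and 6 of 16 H2B promoters and in 0 of the H1, H3 and H4 promoters, against 1.75% of all promoters, while AAACACA was in 5 of 6 H1 promoters and 7.14% of all. A match describes the letters of the window and not the binding of a factor. Promoters of an H1, an H2A and an H4 gene that were lower in AS podocytes are shown as examples of these 3 layouts, on the strand of the gene and with the matches in capitals (on the reverse strand CCAAT reads ATTGG).
Hist1h1c (chr13:23738557-23738856, + strand): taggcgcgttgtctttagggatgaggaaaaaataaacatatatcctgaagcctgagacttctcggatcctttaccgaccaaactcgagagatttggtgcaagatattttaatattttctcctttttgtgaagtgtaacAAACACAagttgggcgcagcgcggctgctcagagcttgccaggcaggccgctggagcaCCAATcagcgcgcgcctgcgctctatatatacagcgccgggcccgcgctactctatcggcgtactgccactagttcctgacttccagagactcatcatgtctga
Hist1h2ab (chr13:23750838-23751137, + strand): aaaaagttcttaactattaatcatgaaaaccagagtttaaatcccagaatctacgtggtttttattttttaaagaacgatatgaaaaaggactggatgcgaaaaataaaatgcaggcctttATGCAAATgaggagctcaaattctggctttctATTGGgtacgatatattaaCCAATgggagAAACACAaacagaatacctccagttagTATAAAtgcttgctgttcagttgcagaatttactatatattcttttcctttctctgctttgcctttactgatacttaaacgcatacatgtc
Hist1h4i (chr13:22041313-22041612, - strand): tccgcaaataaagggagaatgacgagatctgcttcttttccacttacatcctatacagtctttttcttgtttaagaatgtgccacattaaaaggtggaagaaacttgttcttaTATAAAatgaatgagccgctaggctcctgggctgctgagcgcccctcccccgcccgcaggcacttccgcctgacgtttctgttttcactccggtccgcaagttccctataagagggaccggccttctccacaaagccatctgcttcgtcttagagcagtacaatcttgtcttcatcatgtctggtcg

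Reads were counted on most of the clustered histone genes, but few were abundant. Of the 67 members, 33 had at least 10 counts in every WT sample and 29 in every AS sample, and Hist1h2ao, Hist1h2aa and Hist2h3c1 had no count in any sample. With 3 counts summed over a group as the limit of detection, a gene at 0 may still lie at up to 0.0209 CPM (WT) or 0.0198 CPM (AS), counting error alone. By type, the filter on low counts kept 5 of 6 H1, 5 of 18 H2A, 10 of 18 H2B, 8 of 12 H3 and 7 of 13 H4 genes. By cluster, it kept 28 of 54 Hist1 genes, 5 of 10 Hist2 genes, 2 of 2 Hist3 genes and 0 of 1 Hist4 gene. The member-by-member plot in gene order shows the few abundant genes standing between neighbors with hardly any count.

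**Figure D1:**
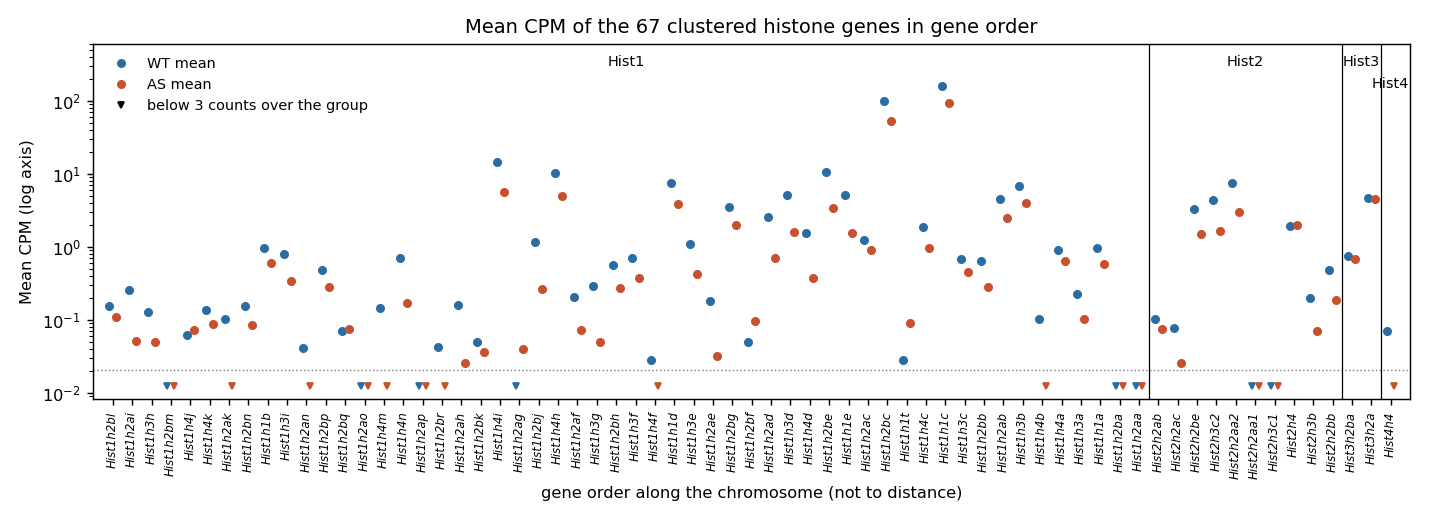
Mean CPM (log axis) of each clustered histone gene in WT (blue) and AS (orange) podocytes, n = 3 each, in GENCODE M21 gene order within the Hist1, Hist2, Hist3 and Hist4 clusters; triangles mark means below 3 counts over the group. Hist1h1c and Hist1h2bc stood highest, at 158 and 98.7 CPM in WT podocytes.

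Expression of the clustered histone genes was reduced in AS relative to WT podocytes. Of the 35 members tested, 17 were significantly decreased at an adjusted p under 0.05 and 18 were not called, whereas over all genes tested 40.1% were called, 19.6% as decreased and 20.4% as increased. No member was increased: the count was 0 with edgeR, also 0 at an unadjusted p under 0.05, and 0 with DESeq2 and with limma-voom. The log2 fold change was below 0 in 34 of the 35, against 49.3% of all genes tested, with a median of -1.04 and a range from -2.13 to 0.08, while the median over all genes was 0.01. CPM of all AS samples lay below all WT samples in 16 of the 35, against 26.0% of all genes tested, and the groups overlapped in the other 19. The filter can favor genes that are high in 1 group. Of the 35, 29 had 10 counts in every sample and 16 of these were decreased, while 4 reached 10 counts in every WT sample but not in every AS sample, and 1 of those 4, Hist2h2bb, was decreased. In bulk RNA, fewer cells that express a histone gene and less of its mRNA per cell cannot be told apart.

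**Figure D2:**
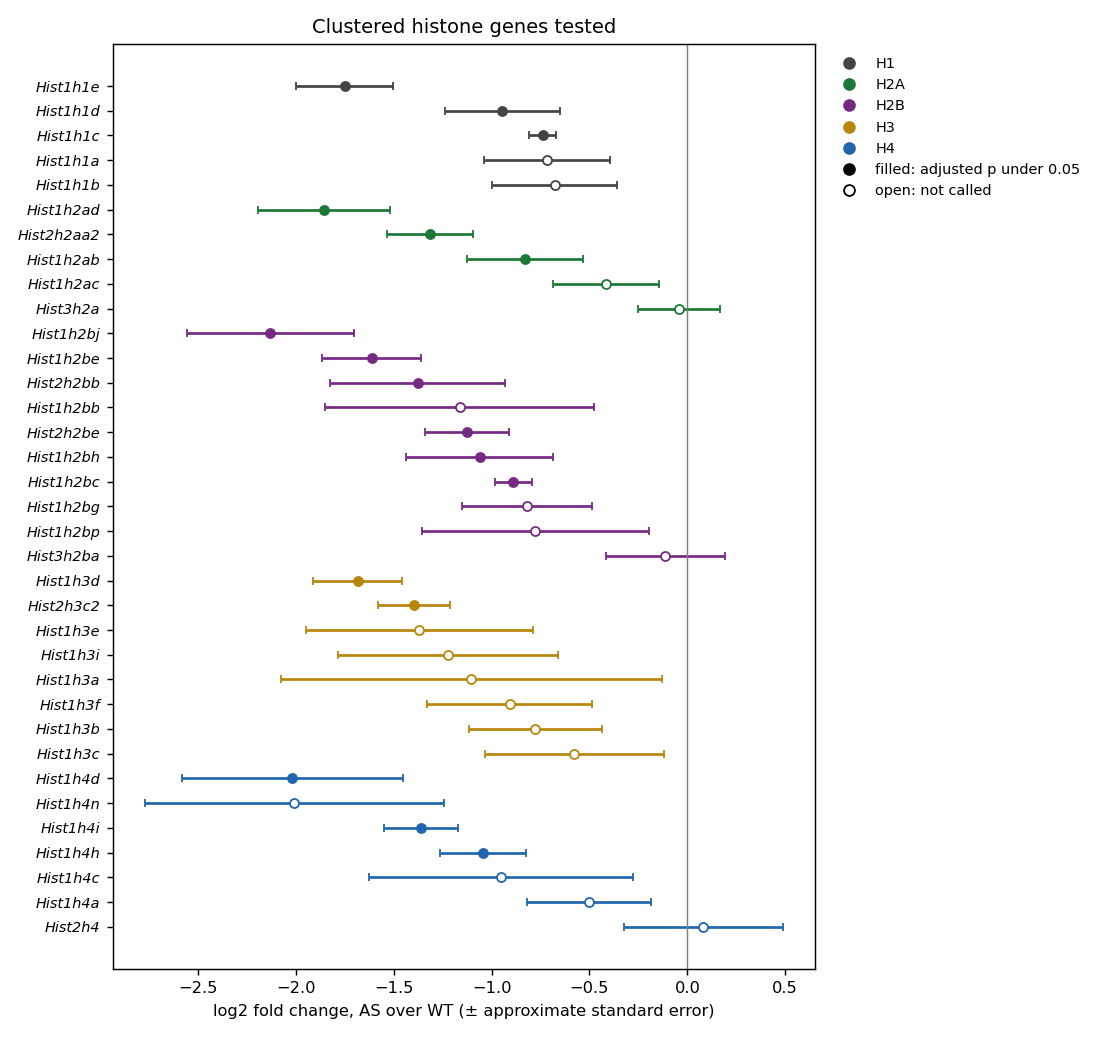
log2 fold change (AS over WT) with its approximate standard error for the 35 clustered histone genes tested, by histone type; filled points have an adjusted p under 0.05 in edgeR. All points but that of Hist2h4 lie left of 0, and the error bars of Hist3h2a, Hist3h2ba and Hist2h4 cross it.

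Of the 17 called members, 12 remained called under every alternative run for them: Hist1h1c, Hist1h1e, Hist1h2ad, Hist1h2bc, Hist1h2be, Hist1h2bj, Hist1h3d, Hist1h4h, Hist1h4i, Hist2h2aa2, Hist2h2be and Hist2h3c2. The number of members decreased was 24 without WT sample 1 and 12 without WT sample 2. Without WT sample 1, 7 more members passed, namely Hist1h2bg, Hist1h3b, Hist1h3e, Hist1h3f, Hist1h3i, Hist1h4c and Hist1h4n. Leaving out 1 sample took 5 members past the threshold: Hist1h1d, Hist1h2ab, Hist1h2bh, Hist1h4d and Hist2h2bb. Their adjusted p in edgeR reached 0.114 for Hist1h1d without AS sample 3, 0.166 for Hist1h2ab without WT sample 2, 0.176 for Hist1h2bh without WT sample 3, 0.0791 for Hist1h4d without WT sample 2 and 0.134 for Hist2h2bb without WT sample 2.

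Linker histones were dominated by 1 gene. Hist1h1c, a somatic H1 subtype, was at 159, 161 and 155 CPM in the WT samples against 104, 91.0 and 88.5 CPM in the AS samples. The WT samples lay close together and well above all AS samples. The log2 fold change was -0.74 ± 0.07 (SE, edgeR adjusted p = 3.75e-05). Per kb of exon, Hist1h1c had the highest level of all members, 101 CPM per kb in WT and 60.7 in AS podocytes, and it held 42.9% of the summed CPM of the members in WT podocytes.

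Of the other H1 genes, Hist1h1e (WT 5.19 ± 1.56 CPM, AS 1.54 ± 0.154 CPM, mean ± SD of 3 samples) fell by 1.75 ± 0.25 on the log2 scale (edgeR adjusted p = 0.000484), a larger fold than that of Hist1h1c. Its WT samples were at 3.39, 6.02 and 6.16 CPM and its AS samples at 1.62, 1.36 and 1.64, with no overlap. Hist1h1d was at 5.62, 10.1 and 6.87 CPM in the WT samples against 2.97, 5.78 and 2.98 in the AS samples, where AS sample 2 overlapped the WT range (log2 fold change -0.94 ± 0.29, edgeR adjusted p = 0.0294). Hist1h1a and Hist1h1b stayed near 1 CPM and were not called, with log2 fold changes of -0.71 ± 0.32 (edgeR adjusted p = 0.108) and -0.68 ± 0.32 (adjusted p = 0.123). The sixth H1 gene, the testis-specific Hist1h1t, was not tested and had at most 7 counts in a sample.

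Among the H2A genes, 3 of the 5 tested were decreased, beside 19.6% of all genes tested. Hist2h2aa2 was at 7.26, 7.58 and 7.67 CPM in the WT samples against 3.95, 1.96 and 3.16 in the AS samples, without overlap (log2 fold change -1.31 ± 0.22, edgeR adjusted p = 0.00133). Hist1h2ad was at 1.50, 3.59 and 2.73 CPM in the WT samples against 0.599, 0.856 and 0.690 in the AS samples. All AS samples were below the lowest WT sample, and the log2 fold change was -1.86 ± 0.34 (edgeR adjusted p = 0.00202). Hist1h2ab was at 2.78, 5.66 and 5.05 CPM in the WT samples against 1.69, 2.84 and 3.02 in the AS samples, where WT sample 1 lay within the AS range (log2 fold change -0.83 ± 0.30, edgeR adjusted p = 0.0493).

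The other H2A genes tested did not pass. Hist3h2a was at 4.08, 4.98 and 4.90 CPM in the WT samples against 3.20, 5.68 and 4.63 in the AS samples, fully overlapping (log2 fold change -0.04 ± 0.21, edgeR adjusted p = 0.891). Hist1h2ac had a log2 fold change of -0.42 ± 0.27 (adjusted p = 0.256). The 13 H2A genes not tested had at most 23 counts in any sample.

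Of the 10 H2B genes tested, 6 were decreased, beside 19.6% of all genes tested. The share was the same for H1 and H2A (3 of 5 each). Hist1h2bc was at 82.7, 106 and 107 CPM in the WT samples against 52.8, 55.6 and 51.6 in the AS samples, so that even the low WT sample 1 was above all AS samples. Its log2 fold change was -0.89 ± 0.10 (edgeR adjusted p = 9.41e-05), and its level per kb of exon was 85.4 CPM in WT and 46.1 in AS podocytes. Hist1h2be was at 6.69, 12.03 and 12.8 CPM in the WT samples against 3.04, 4.28 and 2.96 in the AS samples, without overlap (log2 fold change -1.61 ± 0.25, edgeR adjusted p = 0.000883).

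The largest decrease of any called member was that of Hist1h2bj. It was at 0.611, 1.52 and 1.37 CPM in the WT samples against 0.222, 0.331 and 0.236 in the AS samples, or 31 to 71 counts against 10 to 17 (log2 fold change -2.13 ± 0.43, edgeR adjusted p = 0.00349). The AS samples all lay below WT sample 1. Hist2h2be (log2 fold change -1.13 ± 0.21, edgeR adjusted p = 0.00263), Hist2h2bb (-1.38 ± 0.45, adjusted p = 0.0344) and Hist1h2bh (-1.06 ± 0.37, adjusted p = 0.0474) were also decreased, with AS samples below WT samples in each. Hist1h2bg, Hist1h2bb, Hist1h2bp and Hist3h2ba were not called, at log2 fold changes of -0.82, -1.16, -0.78 and -0.11.

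Of the 8 H3 genes tested, 2 were decreased, or 25%, close to the 19.6% of all genes tested. All 8 log2 fold changes were below 0. Hist1h3d was at 3.55, 5.94 and 5.87 CPM in the WT samples against 1.78, 1.52 and 1.49 in the AS samples, without overlap (log2 fold change -1.68 ± 0.23, edgeR adjusted p = 0.000382). Hist2h3c2 was at 4.35 ± 0.279 CPM in WT against 1.64 ± 0.291 CPM in AS podocytes (mean ± SD of 3 samples) and fell by 1.40 ± 0.18 on the log2 scale (edgeR adjusted p = 0.000328).

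The most abundant H3 gene, Hist1h3b, was at 3.47, 9.64 and 7.52 CPM in the WT samples against 2.86, 5.10 and 4.03 in the AS samples. WT sample 1 lay within the AS range, and the gene was not called (log2 fold change -0.78 ± 0.34, edgeR adjusted p = 0.0981, against 0.00202 without WT sample 1). Hist1h3e, Hist1h3i, Hist1h3a, Hist1h3f and Hist1h3c had log2 fold changes of -1.37, -1.22, -1.10, -0.91 and -0.58 and were not called either. In Hist1h3a, AS sample 2 held 15 counts while the other AS samples held 1 and 0.

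Of 7 H4 genes tested, 3 were decreased, beside 19.6% of all genes tested. Hist1h4i was at 10.9, 17.9 and 15.3 CPM in the WT samples against 5.71, 6.58 and 4.87 in the AS samples (log2 fold change -1.36 ± 0.19, edgeR adjusted p = 0.000419). Hist1h4h was at 6.80, 13.4 and 10.6 CPM in the WT samples against 5.42, 4.77 and 4.74 in the AS samples (log2 fold change -1.04 ± 0.22, edgeR adjusted p = 0.00438). Neither gene overlapped between the groups, and WT sample 1 was the lowest WT sample in both.

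Hist1h4d was at 0.473, 2.50 and 1.73 CPM in the WT samples against 0.222, 0.428 and 0.491 in the AS samples, where WT sample 1 fell within the AS range (log2 fold change -2.02 ± 0.57, edgeR adjusted p = 0.0184). Hist1h4n, at -2.01 ± 0.76, was not called (adjusted p = 0.0622), and Hist1h4c (-0.95) and Hist1h4a (-0.50) were not called. Hist2h4 was the one member with a positive log2 fold change, 0.08 ± 0.41 (edgeR adjusted p = 0.894). Its WT samples were at 0.848, 2.03 and 2.84 CPM and its AS samples at 1.64, 2.84 and 1.54, and the sign turned to -0.28 without WT sample 1 and to -0.26 without AS sample 2.

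**Figure D3:**
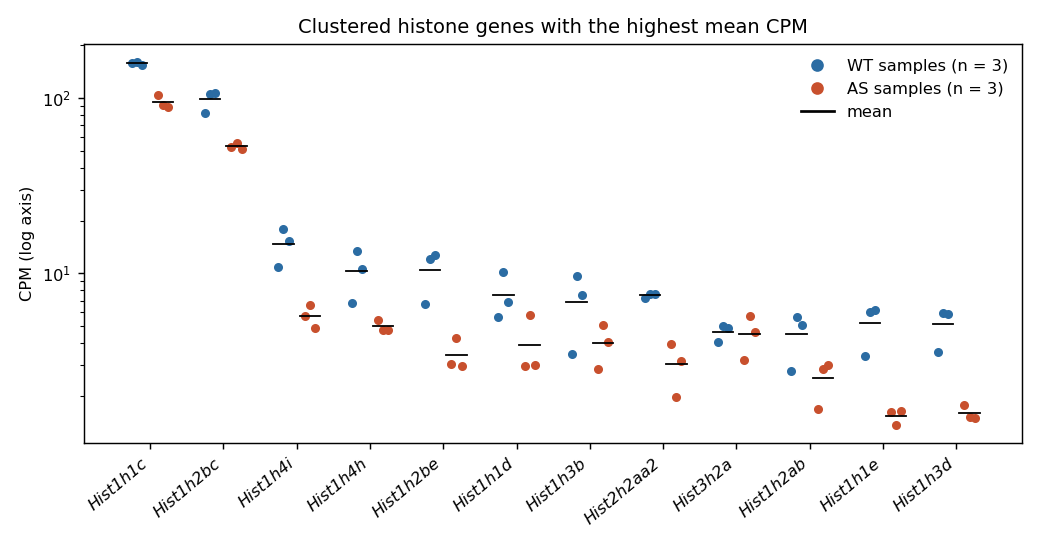
CPM (log axis) of the 12 clustered histone genes with the highest mean CPM in each of the 3 WT (blue) and 3 AS (orange) samples; bars mark the group means. The groups do not overlap for Hist1h1c, Hist1h2bc, Hist1h4i, Hist1h4h, Hist1h2be, Hist2h2aa2, Hist1h1e and Hist1h3d, and they fully overlap for Hist3h2a.

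Summed CPM by type is less exposed to reads placed on the wrong copy. Over all 67 members the sum was 319, 404 and 380 CPM in the WT samples against 204, 208 and 189 CPM in the AS samples, a ratio of 0.544. The AS samples varied by far less than the distance to the lowest WT sample. The ratio was 0.587 for H1, 0.555 for H2A, 0.519 for H2B, 0.444 for H3 and 0.464 for H4, and the groups did not overlap for any type. Hist1h1c and Hist1h2bc together held 69.8% of the summed CPM in WT and 73.9% in AS podocytes. Without these 2 genes the sum was 77.7, 137 and 119 CPM in the WT samples against 46.6, 61.0 and 49.1 CPM in the AS samples, a ratio of 0.470. These sums are a description, and an exact permutation test of 3 against 3 samples cannot go below 0.10.

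**Figure D4:**
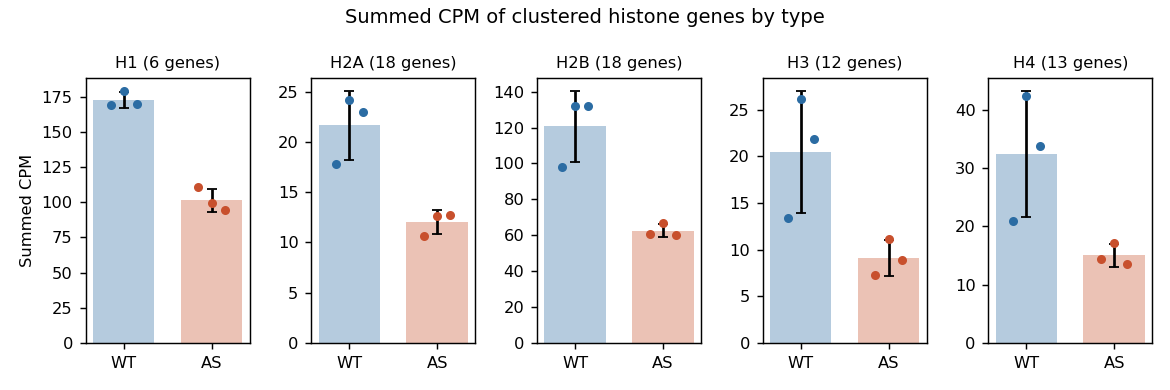
Summed CPM of the clustered histone genes of each type per sample (points), with the group mean (bar) and SD (line), n = 3 each; each panel has its own axis from 0. For each of the 5 types the 3 AS samples lie below the 3 WT samples, and WT sample 1 (left point) is the lowest WT sample for every type.

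The 32 members that did not pass the filter had at most 27 counts in any sample. Among them, mean CPM was lower in AS than in WT podocytes in 22, higher in 7 and 0 in both groups in 3, with no test. Hist1h4f alone had counts in every sample of 1 group (1, 1 and 2 in WT podocytes) and none in the other, where a count of 0 allows up to 3 counts. It was not tested. Hist4h4, the only gene of its cluster, had at most 5 counts in a sample.

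Within the clusters, the 28 Hist1 genes tested had a median log2 fold change of -0.997 with 13 decreased. The 5 Hist2 genes tested had a median of -1.31 with 4 decreased, beside 19.6% of all genes tested. Both Hist3 genes were near 0, with a median of -0.08. The genes tested elsewhere on the same chromosomes had medians of 0.01 on chromosome 13, -0.11 on chromosome 3 and -0.03 on chromosome 11.

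Neighboring histone genes often face away from each other, and M21 holds 18 such divergent pairs of members, of which 12 join an H2A and an H2B gene. The genes of a pair could differ widely in level. Per kb of exon, Hist1h2bc was 172-fold above its partner Hist1h2ac in WT podocytes and 124-fold above it in AS podocytes. Hist2h2be was 8.60-fold above Hist2h2ac per kb in WT podocytes. In contrast, Hist1h3c and Hist1h2bb were at 1.09 and 1.26 CPM per kb in WT podocytes.

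Levels per length were set against the annotated 3′ end. The 22 members with a poly(A) signal had a median of 1.09 CPM per kb of exon in WT and 0.463 in AS podocytes, and the 45 without had 0.435 and 0.210. Of the 12 members with the highest mean CPM, 7 had a signal. Members without one reached 14.2 CPM per kb (Hist2h2aa2) in WT podocytes, and members with one reached 101 (Hist1h1c). Among those tested, 9 of 15 members with a signal and 8 of 20 without were decreased, beside 19.6% of all genes tested. Their median log2 fold changes were -0.89 and -1.19. The annotation release that the authors counted on is not stated, so that these lengths may differ from those behind the counts.

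**Figure D5:**
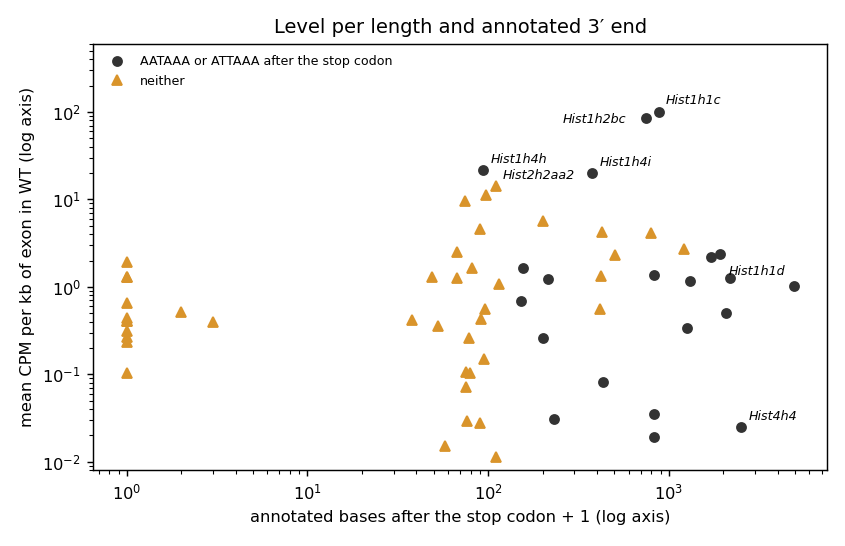
Mean CPM per kb of exon in WT podocytes against the number of annotated bases after the stop codon plus 1 (both log axes) for members with a count in WT podocytes; circles have AATAAA or ATTAAA after the stop codon, triangles do not. The 4 highest members carry such a signal, but signal-bearing members extend down to the lowest levels.

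The listed short RNAs that carry no poly(A) tail had few counts where they were found, while Rn7s1, Rn7s2, Rn7sk and Terc were not matched. Of 10 such genes on the list, those found in the table summed to 0.0545 to 0.289 CPM per sample, none was tested, and Rmrp, Rnu7 and Rpph1 were at 0. The most abundant clustered histone gene, Hist1h1c, was at 88.5 CPM in its lowest sample. How far RNA without a tail was excluded from the libraries was not tested.

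Histone copies share sequence, which limits how far single genes can be read. Cut into windows of 50 bases, the transcripts of Hist2h2aa2, Hist2h2bb, Hist2h2aa1, Hist2h3b and Hist2h3c1 were found entire in other annotated genes. The share was 8.54% for Hist1h1c, 30.6% for Hist1h2bc, 28.9% for Hist1h4i and 45.8% for Hist1h4h, and 0% for Hist2h2be, Hist1h1a and Hist1h1b. Hist1h1e shared 23.8% of its windows with the overlapping Hist1h2be, and Hist3h2a shared 31.5% with Trim17. How the authors treated reads that fit several genes is not stated, and values of genes with a high share are uncertain. Among the 13 members with under 20% shared, 11 were tested and 6 were decreased, with a median log2 fold change of -0.94. The 24 tested members with a larger share had 11 decreased and a median of -1.13. Over all genes tested, 19.6% were decreased. Within a type, coding sequences were alike at a median of 70.1% of positions for H1, 91.4% for H2A, 96.6% for H2B, 97.3% for H3 and 93.9% for H4.

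Replacement histones are encoded outside the clusters. Of 11 such genes tested, 3 were decreased, 2 were increased and 6 were not called, beside 19.6% decreased and 20.4% increased over all genes tested, with a median log2 fold change of -0.10, and their sum was 984 to 1193 CPM in the WT samples against 1024 to 1129 CPM in the AS samples. H2afx, whose product is phosphorylated at DNA breaks, was at 29.3 ± 2.51 CPM in WT against 20.9 ± 0.888 CPM in AS podocytes (mean ± SD of 3 samples) and fell by 0.48 ± 0.08 on the log2 scale (edgeR adjusted p = 0.00116). H2afj and H2afz fell by 0.44 and 0.32 (adjusted p = 0.00253 and 0.0116).

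H1f0, the linker histone of non-dividing cells, was increased. It was at 76.0, 60.2 and 62.2 CPM in the WT samples against 107, 88.3 and 89.4 CPM in the AS samples, without overlap (log2 fold change 0.52 ± 0.10, edgeR adjusted p = 0.00326). Its direction was thus opposite to that of Hist1h1c. H3f3a and H3f3b, which encode the replacement H3, were not called, at log2 fold changes of 0.17 ± 0.07 (adjusted p = 0.0663) and -0.10 ± 0.11 (adjusted p = 0.531).

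Most genes for histone mRNA transcription and processing were not called. Of 21 tested, 2 were decreased and 4 increased, beside 40.1% of all genes called in either direction, with a median log2 fold change of 0.06. Slbp, which binds the stem-loop, was at 27.2, 20.8 and 20.5 CPM in the WT samples against 28.0, 26.1 and 26.5 in the AS samples and was not called (log2 fold change 0.23 ± 0.11, edgeR adjusted p = 0.117). Npat and its partner Casp8ap2 were not called, at 0.03 ± 0.07 (adjusted p = 0.736) and -0.15 ± 0.08 (adjusted p = 0.151).

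Nor were the U7 snRNP genes Lsm10 (-0.25, adjusted p = 0.150) and Lsm11 (0.09, adjusted p = 0.640), the zinc finger gene Zfp473 (0.66, adjusted p = 0.0730) or the 3′ exonuclease gene Eri1 (0.06, adjusted p = 0.650). The smallest adjusted p on this list were those of Cpsf1, a subunit of the cleavage and polyadenylation factor (log2 fold change 0.39), Upf1, an RNA helicase of mRNA decay (0.29), and Ncbp2, a cap-binding protein (-0.23). Of 21 histone chaperones, 5 were decreased and 3 increased (over all genes tested 19.6% and 20.4%), with a median of -0.07. Among these were Hjurp, the CENP-A chaperone, which rose from 28.0 to 61.4 CPM (log2 fold change 1.13 ± 0.10), Chaf1a, the large subunit of CAF-1 (-0.66), and Anp32e, which removes H2A.Z (-0.50).

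Genes of S phase and of cell division were lower in AS podocytes in the same samples. Of 30 S-phase genes, 18 were decreased and 1 increased, with a median log2 fold change of -0.44. Over all genes tested, 19.6% were decreased and 20.4% increased. The cyclin E genes Ccne2 and Ccne1 fell by 1.30 and 0.80 on the log2 scale (edgeR adjusted p = 0.000309 and 0.000472). Of 10 genes of G2 and mitosis, 10 were decreased, with a median of -0.86, among them Ccnb1 (-1.11), Bub1 (-1.18) and Mki67 (-0.98).

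The sample order differed between these lists and the sum of the histone genes. The S-phase genes summed to 739, 778 and 599 CPM in WT samples 1, 2 and 3, and the G2 and mitosis genes to 222, 229 and 139 CPM. WT sample 3 was thus lowest for these lists, whereas WT sample 1 was lowest for the summed histone genes. Hist1h1c alone was lowest in WT sample 3, at 155 CPM against 159 and 161 CPM in WT samples 1 and 2. In the AS samples the S-phase genes summed to 519 to 562 CPM and the G2 and mitosis genes to 106 to 115 CPM. The part of these genes in the histone result was not tested. Markers of other cell types also moved in places: the 6 mesangial or fibroblast markers summed to 5767 to 7925 CPM in WT and 6844 to 7949 CPM in AS samples, most of which was Acta2 (a mean of 6701 CPM in WT against 6759 CPM in AS podocytes, not called). On that list Col1a1 rose from 24.3 to 477 CPM and Pdgfrb fell from 253 to 116 CPM (edgeR adjusted p = 1.87e-07 and 8.71e-07). The 6 parietal epithelial markers summed to 643 to 672 CPM in WT and 503 to 533 CPM in AS samples, the 5 immune markers to 11.2 to 15.0 and 5.09 to 7.02 CPM, and the 5 endothelial markers to 0.631 to 1.24 and 0.155 to 0.447 CPM. Their part in the result was not tested.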

How the data were processed

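Transcriptomes of WT (n = 3) and AS (n = 3) podocytes were analyzed. The authors deposited whole-number read counts per gene, not normalized. The submitters' processing notes name mm39, FastQC, Trim Galore, STAR and edgeR. The counting tool, its annotation, the strand setting and the handling of multi-mapped reads were not given in the sources used here. Identifiers without their version were matched to GENCODE M21 (GRCm38) for names, gene type, transcripts and gene order: 51880 of 57132 matched, and 35 with the same version. Unmatched identifiers held 0.363% of the counts.

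Counts were analyzed in R 4.3.3 with edgeR 4.0.16 (filterByExpr with minimum count 10 and minimum total count 15, TMM, quasi-likelihood test, two-sided, genotype as the only term). The SE is approximate: the fold change (log2) over the root of edgeR's F. limma-voom (limma 3.58.1) and DESeq2 1.42.0 were alternatives, as were RLE size factors, library size only, no filter, a replicate block, a minimum mean of 1 CPM, subtraction of the chromosome median, other detection limits and each sample left out in turn. The test was tested on simulated data. No 2 samples of a group agreed within sampling noise. Total counts were 45417221 to 54290968 per sample. The limits of detection cover counting error only, whereas the SE comes from a fit that includes the spread between samples.

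The members and lists were chosen with earlier results of these data known. Every member tested was named, with all sample values for the 12 with the highest mean CPM and for the 5 largest increases and decreases among those called. Untested members were named by rule only where counted in all samples of 1 group and in none of the other. Of each list, at most 3 genes with the smallest adjusted p were named, along with Col4a3, Slbp, Npat, Casp8ap2, Lsm10, Lsm11, Zfp473, Eri1, H2afx, H2afz, H3f3a, H3f3b and H1f0. The other untested members, marker genes and Col1a1 were named after their values were seen. Symk, Zcchc6, Zcchc11, Rn7s1, Rn7s2, Rn7sk and Terc were on the lists but were not matched by symbol. Some genes of the marker and S-phase lists are not reported here by name.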

Additional observations from a re-analysis of the deposited data

How the results depend on the processing

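The number of members decreased was 17 as reported, 17 with RLE size factors, 15 with library size only, 14 with limma-voom, 20 with DESeq2, 23 without a filter on low counts (64 members tested) and 12 at a mean CPM of at least 1 (19 tested), and 12 to 24 with 1 sample left out. The number of members increased was 0 in each of these. Subtracting the chromosome median, with no test, kept the sign of the log2 fold change in all 35 members. Same-numbered WT and AS samples were not treated as pairs, since the correlation of their deviations over all genes was 0.147, 0.0939 and 0.0526 for sets 1, 2 and 3. With a replicate block, 20 members were decreased and 0 increased, and 7066 of all genes were called. Hist1h2bg, Hist1h3b, Hist1h3e and Hist1h4n then passed (edgeR adjusted p = 0.00803, 0.00722, 0.00927 and 0.0166), and Hist1h2bh did not (0.0741). Over the members alone the same correlations were 0.575, 0.539 and 0.480, a hint from the data and not the design. Those of samples with different numbers were negative, which adds nothing, since deviations were taken from the mean of each group. Detection in every WT sample moved from 33 members to 55 at 1 count and 16 at 1 CPM, and in every AS sample from 29 to 16 at 1 CPM. Without its highest member, the log2 ratio of the sum was -1.13 for H1 and -1.24 for H2B, against -0.77 and -0.95. With 1 sample left out, the log2 fold change ranged from -0.28 to 0.49 for Hist2h4, from -0.25 to 0.14 for Hist3h2a and from -0.25 to 0.052 for Hist3h2ba, and the sign turned within each range. The cause was not tested. None of the 32 untested members exceeded 27 counts in a sample. The parts of depth and of sequence shared between copies in these low counts were not tested.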

Other observations

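The H2A pseudogene Hist1h2al, no member of the protein-coding set and chosen after its values were seen, had more reads than any H2A member in every sample. It held 491, 638 and 528 counts in the WT samples and 281, 333 and 312 counts in the AS samples (9.68, 13.6 and 11.4 against 6.24, 6.48 and 5.67 CPM). The groups did not overlap, and its log2 fold change was -0.92 ± 0.14 (edgeR adjusted p = 0.000811). Of its 50-base windows, 67.6% were found in other annotated genes, most of them in Gm20632 (65.5%), which also holds all windows of Hist2h2aa2. The pseudogenes Hist1h2aj and Hist3h2bb-ps were not tested.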
